A study of Mus musculus with 12 samples.

Results

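A set of 10 genes of vascular tone and of the muscle and vessel cell surface was examined in mouse muscle that bore vascular anomalies and in normal mouse muscle. They were the nitric oxide synthases Nos1, Nos2 and Nos3, the endothelin genes Edn1, Ednra, Ednrb and Ece1, the caveolins Cav1 and Cav3, and the prostacyclin synthase Ptgis. They were chosen by name, as muscle and endothelial forms of the same families with their close partners, and all 10 were found among the 30389 genes measured. Messenger RNA was sequenced in 12 libraries from 6 C57BL/6 mice, whose age is not given here. All 6 mice carried SB Transposase, the Sleeping Beauty enzyme, and onc3, a transposon that the enzyme moves within the genome. The 3 anomaly mice also carried VEC-Cre, in which the promoter of the endothelial gene for VE-cadherin drives the recombinase Cre, and their tissue was a vascular anomaly in muscle. The 3 normal mice had no Cre and gave normal muscle. Each mouse gave 2 libraries from separate pieces, which in anomaly animal 2 were separate lesions, so the mouse was the replicate (n = 3 per group).

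Nitric oxide is a gas made from arginine that diffuses into smooth muscle and relaxes it through cyclic GMP. Nos3 is the endothelial synthase, Nos1 the neuronal form, which in skeletal muscle sits under the fibre membrane on the dystrophin complex, and Nos2 the form induced in macrophages and other cells by inflammation. Endothelin 1, encoded by Edn1, opposes this: it is cut to its active form by the protease that Ece1 encodes, contracts smooth muscle through the receptor that Ednra encodes, and acts on endothelium through the receptor that Ednrb encodes. Caveolins form the small membrane pits called caveolae, with Cav1 in endothelium, fat and smooth muscle and Cav3 in muscle fibres. Caveolin 1 binds the endothelial synthase and holds its activity down. Prostacyclin, made by the product of Ptgis, is another relaxing and antithrombotic signal of the vessel wall.

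The levels are CPM, read counts relative to the size of each library as the authors scaled it. The depth was 254404 reads in piece 1 of anomaly animal 1, 9650550 to 18476461 in the other anomaly libraries and 17380211 to 32155879 in the normal libraries. A single read was worth 1.85 CPM in that shallow library and at most 0.0719 CPM in every other, so values of a few CPM in it rest on 1 to 4 reads. The 10 marker genes of the skeletal muscle fibre summed to 318147 to 378692 CPM in normal libraries and to 255 to 40808 CPM in anomaly libraries, with 9 of 10 called lower. The 10 endothelial marker genes summed to 309 to 502 CPM in normal libraries and to 2120 to 6939 CPM in anomaly libraries, with 10 of 10 called higher. Of 5 fibroblast markers 1 was called higher, of 4 lymphatic markers 2 were called higher and 1 lower, and of 5 Schwann cell markers 3 were called lower. No marker was at 0 in every library of a group. In bulk tissue, fewer cells of a type and less RNA per cell cannot be told apart, and this holds for every level below.

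The endothelial forms were higher in anomaly tissue and the muscle forms lower. Nos3, Nos2, Ednra, Ednrb, Ece1 and Cav1 rose, Nos1 and Cav3 fell, and Edn1 and Ptgis did not pass the test. Differences were tested with limma on log2(CPM + 1), with the pieces of a mouse averaged, and are given as anomaly minus normal with the standard error. All 10 genes passed the filter, which asked that either group average 1 CPM or more, and 8 had an adjusted p under 0.05. Over the 14687 genes tested, 63.4% were called in either direction, 32.4% higher and 31.0% lower. The 6 higher and 2 lower genes were also those in which no anomaly library overlapped a normal library. Complete separation above was found in 28.8% and below in 27.6% of all genes. The median log2 difference was 2.12 over these 10 genes and 0.09 over all genes tested. The scaling moved that second value. With library totals alone the median of all genes was 0.97, with 82.9% of calls higher against 51.1% with the deposited scaling. With a trimmed mean that left out the 50 most abundant genes it was -0.33, with 38.2% of calls higher. The 10 genes kept their direction under each of these scalings.

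**Figure D1:**
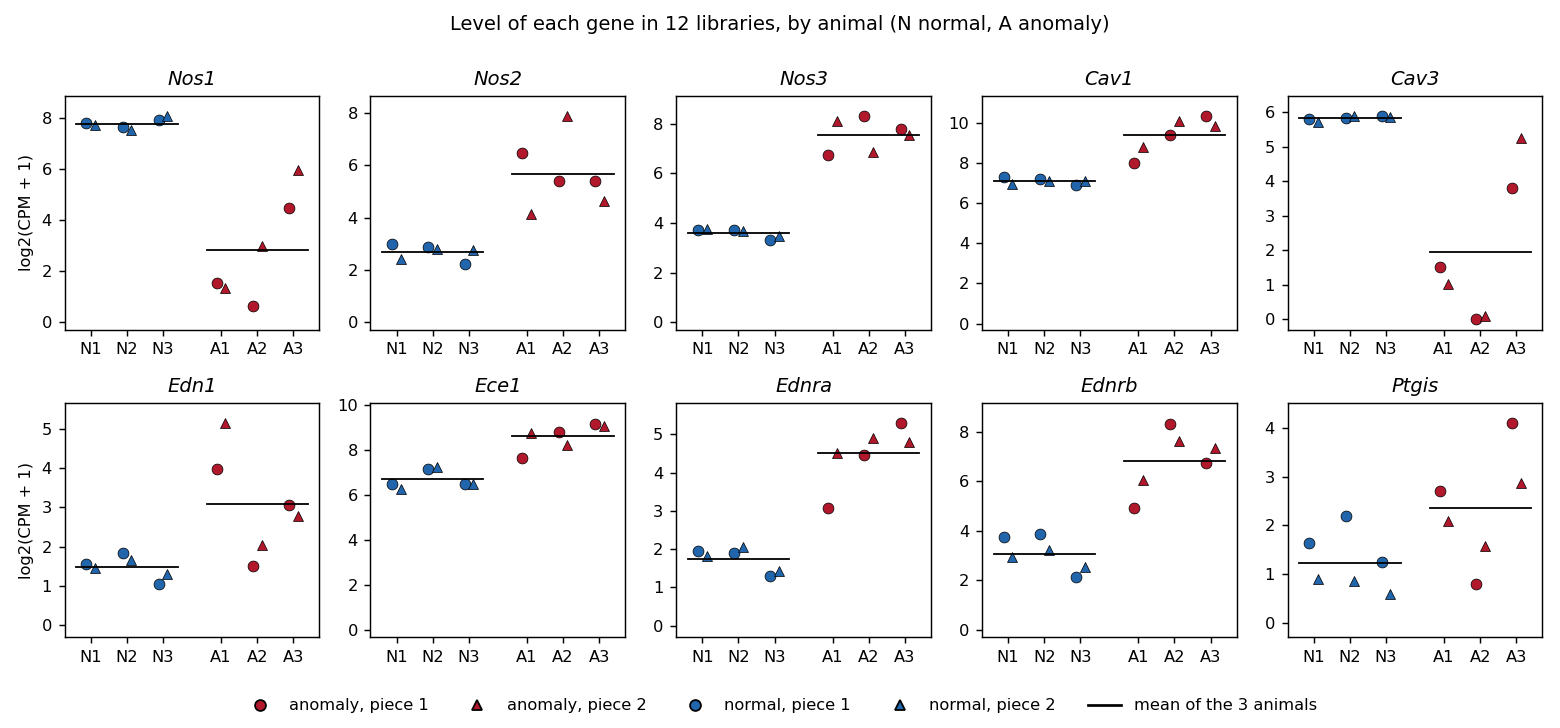
Level of each gene as log2(CPM + 1) in every library, with a separate vertical axis per gene, normal animals (N1 to N3) in blue and anomaly animals (A1 to A3) in red, circles for piece 1, triangles for piece 2 and a line at the mean of the 3 animals. Nos1 and Cav3 were below every normal library in all 6 anomaly libraries, though Cav3 reached 37.0 CPM in animal 3 against a lowest normal value of 51.3 CPM. Nos3 lay between 105.6 and 314.3 CPM in anomaly libraries and between 8.99 and 12.4 CPM in normal libraries.

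Among the nitric oxide synthases, the endothelial and the muscle form changed places. Nos3 (ENSMUSG00000028978, protein coding, GRCm38 chromosome 5, 24364810 to 24384474, plus strand) measured 105.6 and 273.5 CPM in the pieces of anomaly animal 1, 314.3 and 114.3 CPM in animal 2 and 221.3 and 184.3 CPM in animal 3. In normal libraries it had a lowest value of 8.99, a median of 12 and a highest value of 12.4 CPM. Every anomaly library was far above every normal one, and the animal means of 190, 214 and 203 CPM lay close together. Nos3 rose by 3.94 ± 0.16 (limma adjusted p = 1.05e-04), the smallest standard error of the 10 genes. The libraries were not stranded, and 1040 exonic bases of Nos3, 25.2% of the total, are shared with the antisense gene Gm15587 and 294 with Atg9b, an autophagy gene on the other strand. Gm15587 averaged 3.36 CPM and Atg9b 19.9 CPM in anomaly tissue, against 0.254 and 0.285 CPM in normal muscle, so reads of these genes cannot be fully told from those of Nos3.

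Nos1 (ENSMUSG00000029361, protein coding, chromosome 5, 117781032 to 117958840, plus strand) measured 1.85 and 1.53 CPM in anomaly animal 1, 0.530 and 6.86 CPM in animal 2 and 21.5 and 60.9 CPM in animal 3. The normal libraries ran from 185.0 to 270.3 CPM with a median of 217 CPM. Animal 3 retained the most, yet its higher piece was still below the lowest normal library. Nos1 fell by 4.97 ± 0.97 (limma adjusted p = 0.00528), and by 6.18 when animal 3 was left out. Both pieces of animal 3 were also the highest anomaly libraries in fibre markers, which summed to 272 and 2447 CPM in animal 1, 255 and 569 CPM in animal 2 and 13101 and 40808 CPM in animal 3. The part of fibre content in the result was not tested.

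Nos2 (ENSMUSG00000020826, protein coding, chromosome 11, 78920787 to 78960254, plus strand) measured 88.9 and 16.5 CPM in anomaly animal 1, 41.1 and 235.9 CPM in animal 2 and 40.8 and 23.8 CPM in animal 3. In normal muscle the libraries ran from 3.67 to 7.02 CPM with a median of 5.87 CPM. All anomaly libraries were above all normal ones, but the pieces of 1 mouse were far apart, with the lower piece being the second in animals 1 and 3 and the first in animal 2. Nos2 rose by 2.97 ± 0.43 (limma adjusted p = 0.00172). Macrophages are a known source of this synthase, and 7 of 7 macrophage markers were called higher, with sums of 313 to 1995 CPM against 16.6 to 109 CPM. The macrophage sum was 1446 CPM in the piece with the highest Nos2 and 1995 CPM in the piece with the lowest, and its part in the result was not tested.

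Of 20 genes that feed, regulate or remove nitric oxide, all tested, 7 were called higher, 3 lower and 10 not called, with a median of 1.01. The number higher is near the 32.4% of all genes tested, and the number called in either direction is below the 63.4% of all genes, so the counts do not set the list apart. The arginine importer gene Slc7a1 rose from a mean of 3.63 to 57.6 CPM, by 3.65 ± 0.21 (limma adjusted p = 1.42e-04). Nostrin, encoding a protein that traffics the endothelial synthase, rose by 2.95 ± 0.19 (adjusted p = 1.72e-04). Gch1, encoding the first enzyme of the synthases' cofactor tetrahydrobiopterin, rose by 2.02 ± 0.26 (adjusted p = 0.00119). Of the genes called lower, Slc7a2, another arginine importer, fell by 2.36 ± 0.54 (adjusted p = 0.00976). Spr, the last enzyme of cofactor synthesis, fell by 1.03 ± 0.25 (adjusted p = 0.0119), and Qdpr, which recycles the cofactor, fell by 0.71 ± 0.21 (adjusted p = 0.0232). With library totals alone, 12 of the 20 were called higher, and Slc7a2, Spr and Qdpr were no longer called.

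The genes that read nitric oxide through cyclic GMP moved in both directions. Of 12 genes, all tested, 7 were called higher, 2 lower and 3 not called, with a median of 1.21. The shares over all genes tested were 32.4% higher and 31.0% lower. Vasp, an actin regulator phosphorylated by the cyclic GMP kinase, rose by 2.71 ± 0.22 (limma adjusted p = 2.95e-04), and Pde3a, a phosphodiesterase that cyclic GMP inhibits, by 2.36 ± 0.44 (adjusted p = 0.0046). Kcnma1, the calcium-activated potassium channel that the kinase opens in smooth muscle, fell by 4.26 ± 0.57 (adjusted p = 0.0013), from 38.1 to 62.7 CPM in normal libraries to 0 to 6.45 CPM in anomaly libraries. Of 8 mural and smooth muscle markers, 6 were called higher and 0 lower, and of 10 fibre markers 9 were called lower. The part of these cell types in the fall of Kcnma1 was not tested. Prkg1, encoding a cyclic GMP kinase, fell by 1.61 ± 0.44 (adjusted p = 0.0191), while Prkg2, encoding another, rose by 0.94 ± 0.32 (adjusted p = 0.0402). The alpha 1 and beta 1 subunits of the nitric oxide receptor, soluble guanylate cyclase, were not called, with adjusted p = 0.191 and 0.0948. Its alpha 2 subunit gene, Gucy1a2, was called higher, by 0.67 ± 0.18 (adjusted p = 0.0161), at low means of 1.05 CPM in anomaly and 0.263 CPM in normal libraries. The number called higher was 4 without anomaly animal 2 or normal animal 1 and 3 without normal animal 3, and the number called lower was 1 without anomaly animal 2 or normal animal 2.

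Of the caveolins, the vascular form rose and the muscle form fell. They lie on the same chromosome, and the bases before their starts are shown because one gene rose and the other fell. Sequences are from RefSeq on GRCm38.p6, written 5' to 3' on the plus strand, and end at the base before the transcription start. Capitals mark E-boxes, the letters CANNTG, to which muscle regulators of the MyoD family bind.
Cav1, first start, chr6:17306085-17306334: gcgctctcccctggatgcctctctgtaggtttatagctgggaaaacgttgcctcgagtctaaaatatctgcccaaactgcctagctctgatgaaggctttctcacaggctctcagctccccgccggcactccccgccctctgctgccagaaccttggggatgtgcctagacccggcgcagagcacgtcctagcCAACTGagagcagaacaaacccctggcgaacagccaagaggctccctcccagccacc
Cav1, second start, chr6:17307390-17307639: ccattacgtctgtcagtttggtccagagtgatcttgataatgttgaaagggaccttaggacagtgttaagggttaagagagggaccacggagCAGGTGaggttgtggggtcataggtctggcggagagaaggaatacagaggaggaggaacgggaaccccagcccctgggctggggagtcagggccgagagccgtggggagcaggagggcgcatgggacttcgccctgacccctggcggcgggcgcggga
Cav3, chr6:112459255-112459504: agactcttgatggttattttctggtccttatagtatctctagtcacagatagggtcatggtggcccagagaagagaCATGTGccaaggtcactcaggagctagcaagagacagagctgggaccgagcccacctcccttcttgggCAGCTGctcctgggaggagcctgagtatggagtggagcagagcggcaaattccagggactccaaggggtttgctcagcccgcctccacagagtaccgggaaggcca
The first Cav1 window held 1 E-box, CAACTG, 57 bases before the start, and the second held 1, CAGGTG, at 158 bases. The Cav3 window held 2, CATGTG at 174 bases and CAGCTG at 106 bases. An E-box, which reads as CANNTG on both strands, occurs in 66.2% of 32851 promoter windows of that length, so its presence here is a description only. The ETS core GGAA, sought on both strands, was in all 3 windows and in 93.4% of all windows. The GATA core GATAA was in the second Cav1 window alone among these 3, and in 22.6% of all windows. The letters CACCC and TGANTCA were in none of the 3, against 52.0% and 6.75% of all windows. Of the 10 genes, 7 were in the promoter table, and Nos2, Nos3 and Ptgis were not.

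Cav1 (ENSMUSG00000007655, protein coding, chromosome 6, 17306335 to 17341452, plus strand) measured 253.9 and 450.8 CPM in anomaly animal 1, 665.8 and 1104 CPM in animal 2 and 1282 and 921.5 CPM in animal 3. Values in normal muscle ran from 119.8 to 155.3 CPM with a median of 138 CPM. All anomaly libraries were above all normal ones, and animal 1 was the lowest of the 3 anomaly mice. Cav1 rose by 2.32 ± 0.45 (limma adjusted p = 0.00535). Fat cells also carry much caveolin 1, and 4 adipocyte markers summed to 335 CPM in piece 2 of anomaly animal 2, to 0.271 to 18.1 CPM in the other anomaly libraries and to 19.6 to 85.2 CPM in normal libraries. The highest Cav1 value lay in piece 1 of animal 3, where that sum was 0.271 CPM. The sum of 8 mural and smooth muscle markers was highest in the same pieces as Cav1, at 2626 CPM in piece 1 of animal 3 and 2670 CPM in piece 2 of animal 2, against 993 to 1699 CPM in the other anomaly libraries. The part of these cell types in the result was not tested.

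Cav3 (ENSMUSG00000062694, protein coding, chromosome 6, 112459505 to 112472872, plus strand) measured 1.85 and 1.03 CPM in anomaly animal 1, 0 and 0.0581 CPM in animal 2 and 12.9 and 37.0 CPM in animal 3. The normal libraries ran only from 51.3 to 58.5 CPM with a median of 56.6 CPM. No anomaly library reached the normal range, and in animal 2 the gene had 0 reads in 1 piece and 1 read in the other. Cav3 fell by 3.89 ± 1.07 (limma adjusted p = 0.0191). This call did not hold with library totals alone (adjusted p = 0.0520), without anomaly animal 1 (0.0505) or without any 1 of the normal animals (0.0542 to 0.0585), and the difference was -2.94 without anomaly animal 2 and -5.18 without anomaly animal 3. As with Nos1, animal 3 had the highest fibre marker sums of the anomaly mice, and the part of fibre content was not tested.

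The partners that build caveolae were mostly higher, while those known from muscle were lower. Of 11 genes, 10 were tested: 6 were called higher, 2 lower and 2 not called, with a median of 1.43. Among all genes tested, 32.4% were called higher and 31.0% lower. Cavin3, a coat protein, rose by 3.53 ± 0.23 (limma adjusted p = 1.62e-04). Cav2, which assembles with caveolin 1, rose by 2.08 ± 0.19 (adjusted p = 3.69e-04), and Ehd4, a membrane-remodelling ATPase, by 1.73 ± 0.17 (adjusted p = 4.65e-04). Cavin4, the muscle cavin, fell by 5.37 ± 1.20 (adjusted p = 0.00875), and Pacsin3, a membrane-bending protein abundant in muscle, by 4.33 ± 1.00 (adjusted p = 0.00991). Pacsin1 did not pass the filter.

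Genes whose products surround Nos1 and caveolin 3 at the fibre membrane were lower as a group. Of 8 genes, all tested, 0 were called higher by limma, 7 lower and 1 not called, with a median of -3.82. This stands beside 32.4% higher and 31.0% lower of all genes tested. Dag1, encoding dystroglycan, fell by 2.18 ± 0.34 (limma adjusted p = 0.0023), and Sgcb, a sarcoglycan, by 2.82 ± 0.50 (adjusted p = 0.00377). The gene not called was Dysf, the membrane repair protein dysferlin, at 0.23 ± 0.19 (adjusted p = 0.316), singled out after its value was seen. At an unadjusted p under 0.05 the number higher was also 0, and with library totals alone it was 1 by the adjusted test.

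**Figure D2:**
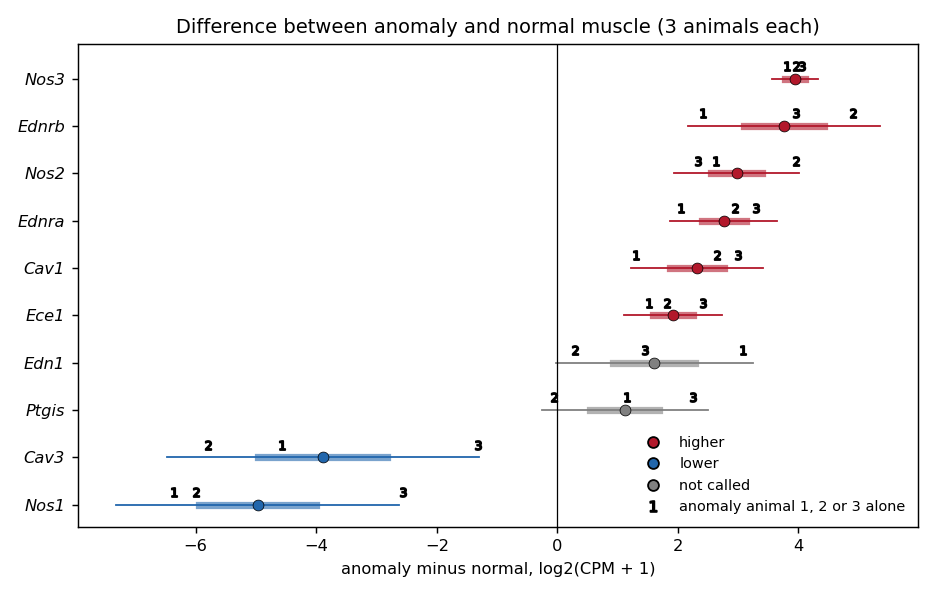
Difference between anomaly and normal muscle in log2(CPM + 1) for each of the 10 genes, as a point with a thick bar for 1 standard error either side and a thin line for the 95% interval of the limma fit. The digits mark each anomaly animal against the normal mean. Nos3 had the narrowest interval, and the intervals of Edn1 and Ptgis crossed 0.

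In the endothelin system both receptors and the converting enzyme rose, while the ligand did not pass the test. Edn1 (ENSMUSG00000021367, protein coding, chromosome 13, 42301476 to 42307990, plus strand) measured 14.8 and 34.3 CPM in anomaly animal 1, 1.85 and 3.14 CPM in animal 2 and 7.39 and 5.92 CPM in animal 3. In normal muscle the libraries ran from 1.08 to 2.60 CPM with a median of 1.86 CPM. Animals 1 and 3 were above all normal libraries, and animal 2 lay within or just above them. The difference was 1.61 ± 0.68 (95% interval -0.03 to 3.24, limma adjusted p = 0.0772). It passed without anomaly animal 2, at 2.26 (adjusted p = 0.0191), with library totals alone (0.0207), and with all 12 libraries and the mouse as a random block (0.0159). Without anomaly animal 1 it was 0.87 (adjusted p = 0.104), and with voom on reads summed per mouse the adjusted p was 0.172.

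Ece1 (ENSMUSG00000057530, protein coding, chromosome 4, 137862237 to 137965229, plus strand) measured 202.0 and 433.7 CPM in anomaly animal 1, 451.2 and 295.7 CPM in animal 2 and 573.2 and 532.7 CPM in animal 3. Values in normal muscle ran from 77.5 to 149.7 CPM with a median of 89.5 CPM, the 2 highest both from normal animal 2. Groups did not overlap, and Ece1 rose by 1.92 ± 0.34 (limma adjusted p = 0.00352).

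Ednrb (ENSMUSG00000022122, protein coding, chromosome 14, 103814625 to 103844402, minus strand) measured 29.6 and 65.0 CPM in anomaly animal 1, 319.2 and 198.5 CPM in animal 2 and 104.7 and 163.1 CPM in animal 3. The normal libraries ran from 3.38 to 13.7 CPM with a median of 7.57 CPM. The groups did not overlap, and the order of the anomaly mice was the reverse of that for Edn1. Ednrb rose by 3.76 ± 0.66 (limma adjusted p = 0.00352), and by 4.43 without anomaly animal 1.

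Ednra (ENSMUSG00000031616, protein coding, chromosome 8, 77663031 to 77724464, minus strand) measured 7.41 and 21.8 CPM in anomaly animal 1, 21.1 and 28.7 CPM in animal 2 and 38.0 and 26.6 CPM in animal 3. In normal muscle the libraries ran from 1.44 to 3.14 CPM with a median of 2.64 CPM. The lowest anomaly value, in the shallow library, rests on 4 reads and was still above every normal library. Ednra rose by 2.76 ± 0.37 (limma adjusted p = 0.00132). This receptor is a smooth muscle gene, and 6 of 8 mural and smooth muscle markers were called higher, with sums of 993 to 2670 CPM against 251 to 593 CPM, whose part in the result was not tested.

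Of 9 further genes of endothelin processing and signalling, 7 were tested, with 4 called higher, 1 lower and 2 not called and a median of 0.95. Calls over all genes tested were 32.4% higher and 31.0% lower. Gnaq, the G protein subunit that couples these receptors, rose by 1.17 ± 0.16 (limma adjusted p = 0.00147), and Plcb3, the phospholipase it activates, by 0.97 ± 0.18 (adjusted p = 0.00466). Mme, a protease that breaks down endothelin and other peptides, fell by 1.34 ± 0.42 (adjusted p = 0.0311). Without anomaly animal 2 or any 1 normal animal, 2 were called higher, and without any 1 animal other than anomaly animal 2, Mme was no longer called. Edn2, another ligand gene, and Kel, another processing protease, did not pass the filter.

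Ptgis (ENSMUSG00000017969, protein coding, chromosome 2, 167191805 to 167240604, minus strand) measured 5.56 and 3.24 CPM in anomaly animal 1, 0.742 and 1.98 CPM in animal 2 and 16.2 and 6.30 CPM in animal 3. Values in normal muscle ran from 0.510 to 3.56 CPM with a median of 1.12 CPM. Animal 3 was above all normal libraries, and animal 2 lay among them. The difference was 1.12 ± 0.57 (95% interval -0.26 to 2.50, limma adjusted p = 0.128). It passed without anomaly animal 2, at 1.71 (adjusted p = 0.0196), from piece 2 alone (0.0182) and with library totals alone (0.0262). Without anomaly animal 3 it was 0.56 (adjusted p = 0.266), and from piece 1 alone 0.85 (adjusted p = 0.378).

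Around it, 13 of 14 prostanoid genes were tested, with 8 called higher, 1 lower and 4 not called and a median of 1.60. Ptgir, the prostacyclin receptor, rose by 1.60 ± 0.29 (limma adjusted p = 0.00422), and Ptger2, a prostaglandin E2 receptor, by 1.75 ± 0.30 (adjusted p = 0.00324). Ptges2, a prostaglandin E synthase, fell by 2.22 ± 0.33 (adjusted p = 0.00195). Ptgds did not pass the filter. Over the 6 lists together, 70 of 74 genes were tested, with 32 higher, 16 lower and 22 not called, beside 32.4% higher and 31.0% lower of all genes tested. The median of each list stands beside the 0.09 of all genes tested, and the lists were compared in no other way.

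**Figure D3:**
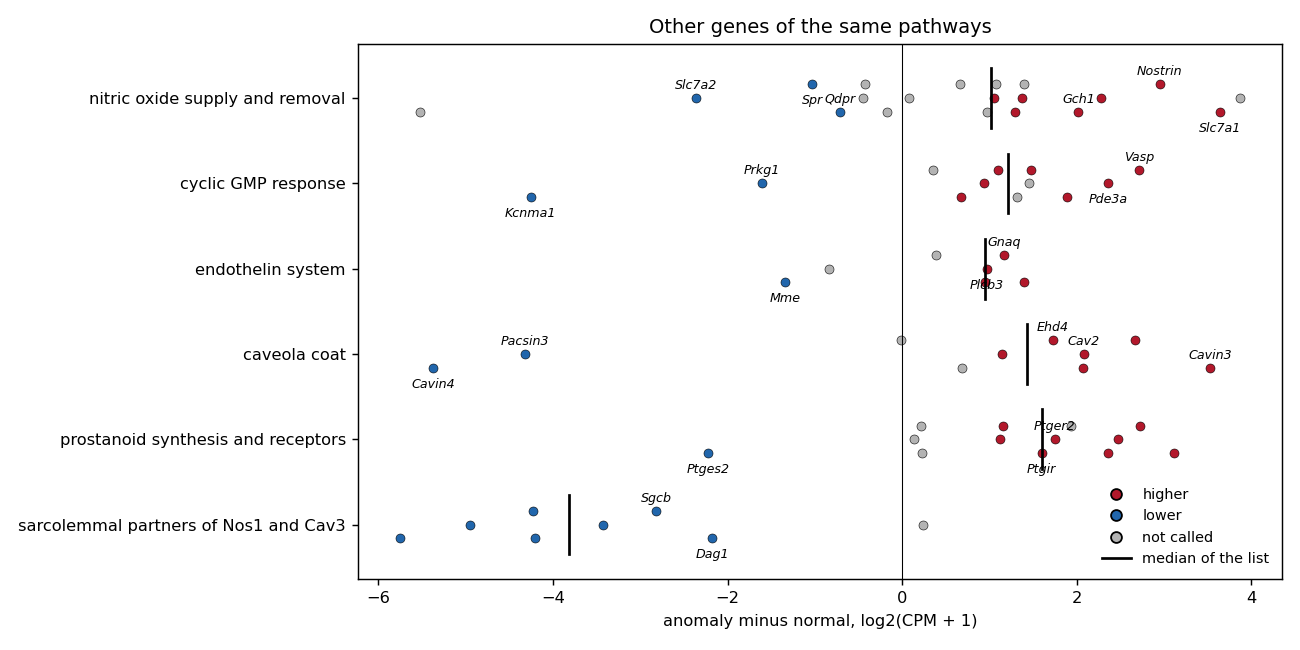
Difference in log2(CPM + 1) between anomaly and normal muscle for each gene of the 6 lists around the 10 genes, coloured by call, with most genes of smallest p and those called against the majority labelled, a bar at each list's median and points spread vertically for legibility. The sarcolemmal partners of Nos1 and Cav3 had a median of -3.82, and the other 5 lists had medians of 0.95 to 1.60.

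Ratios between genes of the same library do not depend on how libraries were scaled to each other, apart from the 1 CPM added to each gene. The 7 ratios were compared by exact two-sided permutation of the mice, in which 3 against 3 cannot give a p below 0.1. With 1 CPM added, every ratio reached that p of 0.1, which is 0.1 after adjustment over the 7, so none passed 0.05. The log2 ratio of Nos3 to Nos1 was -4.18 ± 0.37 in normal muscle and 4.74 ± 1.99 in anomaly tissue (SD, n = 3). It was below 0 in every normal library and above 0 in every anomaly library. The log2 ratio of Cav1 to Cav3 was 1.26 ± 0.12 in normal muscle and 7.47 ± 2.09 in anomaly tissue, so Cav1 was the more abundant by CPM in both.

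Set against Cdh5, the gene for VE-cadherin, Nos3 had a higher and Cav1 a lower ratio in the anomaly mice. The log2 ratio of Nos3 to Cdh5 was -2.98 ± 0.17 in normal and -2.54 ± 0.12 in anomaly mice, a difference of 0.44 that ran from 0.19 to 0.67 over the alternatives, and single libraries of the groups overlapped. That of Cav1 to Cdh5 was 0.50 ± 0.23 in normal and -0.68 ± 0.67 in anomaly mice, a difference of -1.18, and again single libraries overlapped. Cdh5 itself rose by 3.50 ± 0.27 (limma adjusted p = 2.58e-04), beside 3.94 for Nos3 and 2.32 for Cav1. Set against Ckm, the muscle creatine kinase, the ratio of Nos1 was higher in the anomaly mice, which in animal 1 rested on the shallow piece or the added 1 CPM. The ratio of Cav3 rested on the added 1 CPM in animal 2. The log2 ratio of Nos1 to Ckm was -7.23 ± 0.16 in normal and -4.28 ± 1.16 in anomaly mice, and that of Cav3 to Ckm -9.18 ± 0.05 and -5.15 ± 0.59. Cav3 was at or under 1.85 CPM in 4 anomaly libraries, and with 0.25 or 4 CPM added in place of 1 its difference of 4.03 was 3.24 or 4.98. With nothing added, a setting chosen after seeing the data, the Cav3 ratio was -5.69 in anomaly animal 1 and -5.89 in animal 3, above the normal mice at -9.26 to -9.15. The value of animal 1 averages -3.70 in the shallow piece 1, from 1 read of Cav3, and -7.68 in piece 2, which alone is above the normal mice. In animal 2 the Cav3 ratio was -9.47 in piece 2, from 1 read of Cav3, which is not above the normal mice. Piece 1 of animal 2 had no read of Cav3 and no ratio. The Cav3 difference was then 2.19 (exact permutation p = 0.4). That of Nos1 to Ckm was 2.46, with the means of all 3 anomaly mice above the normal mice (exact permutation p = 0.1). In animal 1, however, the Nos1 ratio was -3.70 in the shallow piece 1, from 1 read of Nos1, and -7.12 in piece 2. The value of piece 2 lay within the normal libraries, at -7.52 to -7.01. The log2 ratio of Ednra to Ednrb was -1.34 ± 0.32 in normal and -2.34 ± 0.85 in anomaly mice, and single libraries overlapped. The difference of -0.998 was -0.52 without anomaly animal 2.

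**Figure D4:**
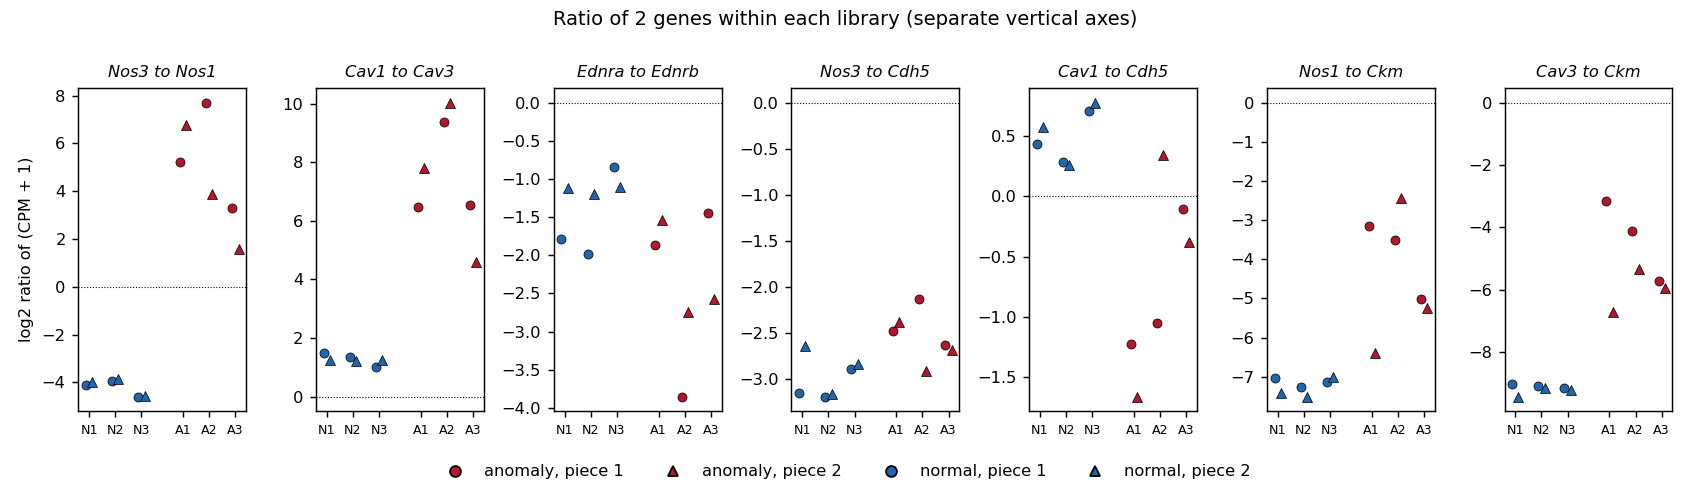
Log2 ratio of 2 genes in each library, computed on CPM + 1, with a separate vertical axis per pair, normal animals in blue and anomaly animals in red, circles for piece 1 and triangles for piece 2. The Nos3 to Nos1 ratio was negative in all normal libraries and positive in all anomaly libraries, while the ratios to Cdh5 and that of Ednra to Ednrb overlapped.

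The anomaly mice differed among themselves. By limma's F test on the 12 libraries, 6 of the 10 genes differed among the 3 anomaly mice at an adjusted p under 0.05, against 35.1% of all genes tested. These were Cav3 (adjusted p = 4.44e-05), Edn1 (6.10e-04), Nos1 (0.00169), Ednrb (0.00351), Cav1 (0.00848) and Ptgis (0.0198). The pieces are the only replicates within a mouse, so these p-values measure the spread between pieces. The same 6 genes passed when the shallow library was left out. Nos3 had the largest adjusted p, 0.902, with pieces of 1 mouse further apart than the means of the mice. Among the normal mice, 0 of the 10 genes passed limma's F test, against 1.08% of all genes, and 1, Ednrb, had an unadjusted p under 0.05 (0.0356). Animal 3 was highest of the anomaly mice in Nos1, Cav3, Cav1, Ece1, Ednra and Ptgis, animal 1 in Edn1, and animal 2 in Ednrb, Nos2 and Nos3, by their mean CPM.

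**Figure D5:**
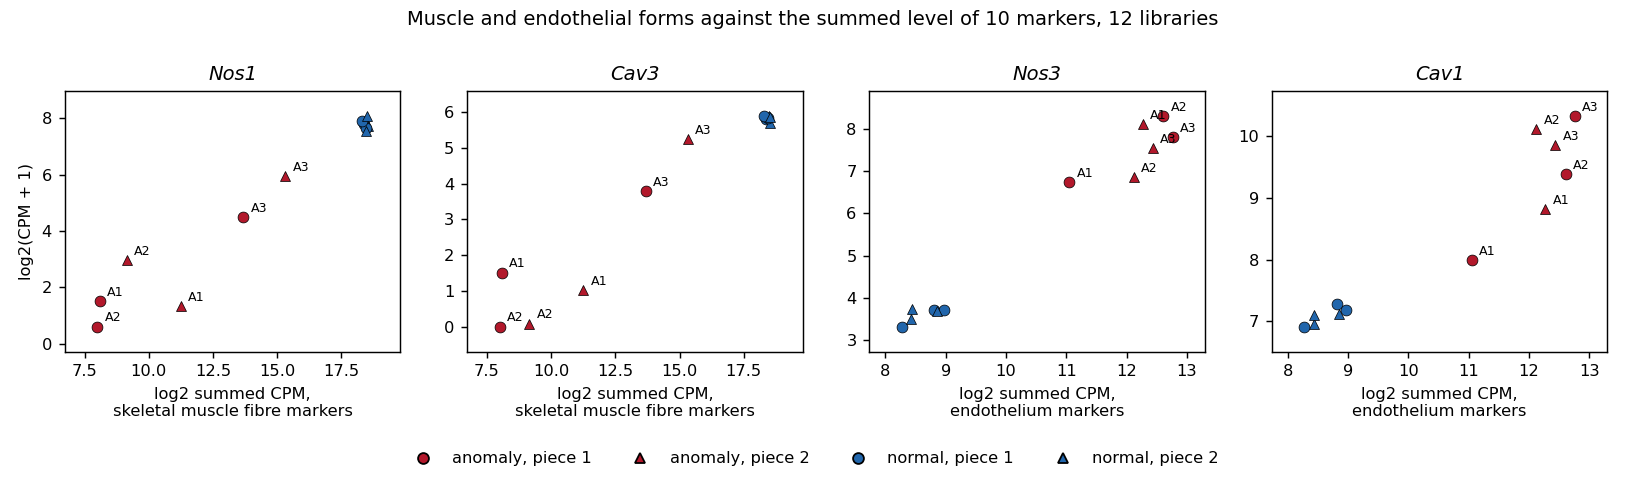
Level of Nos1 and Cav3 against the summed CPM of 10 fibre markers, and of Nos3 and Cav1 against that of 10 endothelial markers, in each library, both on log2 scales, normal libraries in blue and anomaly libraries in red. Anomaly animal 3, whose fibre marker sums were 13101 and 40808 CPM, had the highest Nos1 and Cav3 levels of the anomaly libraries.

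Per kilobase of exon, which allows levels of different genes to be compared, the order differed between the groups. In normal muscle it ran from Cav3 at 48.4 ± 2.24 and Cav1 at 39.6 ± 2.05 through Ece1 at 20.1 ± 6.60 and Nos1 at 19.9 ± 2.83 CPM per kilobase. Nos3, Ednrb, Nos2, Edn1, Ptgis and Ednra followed, from 2.73 ± 0.34 down to 0.438 ± 0.133. Of the 9 neighbouring pairs in this order, 6 overlapped between mice and 3 were separate, namely Cav3 and Cav1, Cav1 and Ece1, and Nos1 and Nos3. In anomaly tissue Cav1 was highest at 226 ± 112, followed by Ece1 at 78.3 ± 23.2, Nos3 at 48.9 ± 3.0, Ednrb at 34.4 ± 24.9 and Nos2 at 16.9 ± 12.8. Cav3, Edn1, Ednra, Ptgis and Nos1 followed, from 7.61 ± 12.1 down to 1.39 ± 2.00. Of these 9 pairs, 8 overlapped and only Ece1 and Nos3 were separate. The lengths are of all annotated exons of a gene, so genes with many transcripts may have levels set too low. Cav1 has 10 annotated transcripts, Nos1 7 and Cav3 1, so the place of Cav3 above Cav1 in normal muscle may depend on these lengths.

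The genes most like the muscle and endothelial forms were sought among 9022 genes that averaged 10 CPM or more, by Pearson correlation of log2(CPM + 1) over the 12 libraries. For Nos1 these were Cox7a1 (r = 0.997), a muscle subunit of cytochrome oxidase, Ndrg2 (0.996) and Sspn (0.996), a member of the dystrophin complex. For Cav3 they were Coro6 (0.997), Pla2g4e (0.996) and Lmod3 (0.996), an actin nucleator of muscle thin filaments. For Nos3 they were Notch4 (0.997), an endothelial Notch receptor, Kctd10 (0.997) and Nckap5l (0.996). For Cav1 they were Elovl5 (0.993), an enzyme of fatty acid elongation, Cdc42ep1 (0.992) and Ptrf (0.991), the older symbol of Cavin1, whose product is the main caveolar coat protein. The libraries fall into 2 groups that differ in most genes, so high values are common: 1753 genes reached r = 0.9 with Nos1, 1729 with Nos3, 950 with Cav1 and 973 with Cav3. Predicted and unnamed genes are included in these counts and in the 9022, but were passed over when the most alike genes were named.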

How the data were processed

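Polyadenylated RNA was sequenced from 12 libraries with an unstranded kit, from 1 ug of RNA each, per the labels' protocols. STAR, limma and the build mm10 (GRCm38) were used, per the submitters' processing notes, and counts came from STAR, per the file headers, with no versions given in the sources used here. The authors deposited log2 values of CPM with a floor of -6.707, which was removed to recover CPM. In every library 100% of the values were whole multiples of 1 read within 0.01, which gave the depths. In the shallow library these units may not be reads as sequenced. Cav3, without a symbol in the table, was found by its Ensembl identifier in GENCODE annotation of GRCm38. Animals and pieces are numbered in order of deposit. Piece 1 was thus labelled A or 1 by the submitters in anomaly mice but B in normal mice.

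The log2(CPM + 1) values were averaged per mouse, and the 14687 genes that averaged 1 CPM or more in either group were fitted by limma 3.58.1, run in R 4.3.3 with a trended and non-robust prior. P-values were adjusted by Benjamini-Hochberg over all of these genes, at a threshold of 0.05. The main fit was tested on simulated data, with far fewer changed genes than were called here and an equal spread between mice in both groups. That test therefore does not show how the fit performs on these data. Nothing says that mice came from separate litters, so p-values measure the spread between these mice. The genes, lists and tests were chosen with earlier results of these data known. From each list the text names the 3 genes with the smallest p, up to 3 called against the majority, and a few others by value. A gene that this rule picked is not reported here. Alternatives changed the scaling, pseudocount, filter, pieces, test and threshold and left out each mouse.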

Additional observations from a re-analysis of the deposited data

Results flagged for a closer look

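In piece 1 of anomaly animal 1, Ednra measured 7.41 CPM, further from the other 5 anomaly libraries than a single value of 6 usually lies. Its gap to the next library was 0.632 of the group's range on the log2 scale, above the critical value of 0.625. The library is the shallow one, in which 7.41 CPM is 4 reads. Of 20 groups of libraries checked, 1 was picked out, and chance picks about 1 in 20.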

How the results depend on the processing

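The 10 genes kept their direction in each of 20 alternatives, and 7 of them, Nos1, Nos2, Nos3, Ednra, Ednrb, Ece1 and Cav1, also kept their call in each. The number of these genes called lower was 2 and became 1 with library totals alone and at an adjusted p under 0.01, and it ranged from 1 to 2 when each mouse was left out in turn. The gene lost was Cav3, and the cause was not tested. No result changed sign, the ratios included. With the piece number as a replicate block over all 12 libraries, 7 of the 10 genes were called higher, with Edn1 at an adjusted p of 0.0195, and 2 lower. Same-numbered pieces of different mice shared only a number, with correlations of -0.114 to 0.147 over 9 pairs of an anomaly and a normal mouse. Depth limits the shallow library, in which 3 reads are 5.56 CPM, so Nos1, Cav3 and Ptgis were not resolved there.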

Other observations

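Some list genes differed widely among the anomaly mice, and these were picked after their values were seen. Arg1, an arginase that competes with the synthases for arginine, measured 593 and 225 CPM in anomaly animal 1, 50.2 and 2.27 CPM in animal 2 and 0.271 and 0.415 CPM in animal 3. The normal libraries had 0.0567 to 0.375 CPM, and the difference was not called (3.88 on the log2 scale, limma adjusted p = 0.112). Ptgs2, the inducible cyclooxygenase, measured 145 and 11.9 CPM in anomaly animal 1 and 0.305 to 0.636 CPM in the other anomaly libraries. Normal libraries had 0 to 0.628 CPM of Ptgs2, and it was not called (limma adjusted p = 0.230). Tbxa2r, the thromboxane receptor, measured 1.85 and 0.449 CPM in anomaly animal 1 and 22.2 to 51.5 CPM in animals 2 and 3, and was called higher (3.12 on the log2 scale, limma adjusted p = 0.0436). Its normal libraries had 0.113 to 0.852 CPM, a range that holds piece 2 of anomaly animal 1. The 1.85 CPM of piece 1 is 1 read in the shallow library. Mb, myoglobin, which removes nitric oxide in muscle, measured 2079 and 5501 CPM in anomaly animal 3, within or above the normal range, while Nos1 in the same pieces stayed below its own. The fibre markers as a set were also below normal in these pieces, with sums of 13101 and 40808 CPM against 318147 to 378692 CPM. Of the 10 fibre markers 9 were called lower. The marker not called, Myh2, reached 7612 CPM in an anomaly library, against 1335 to 3318 CPM in normal libraries.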
